A study of Saccharomyces cerevisiae with 36 samples.

Results

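The wall of budding yeast, and the signalling pathway that maintains it, was followed through 51 genes in a series that profiled 5449 named genes. The members were chosen by gene symbol and fall into 3 classes: 16 genes of proteins held in or secreted to the wall, 21 genes that make, export or remodel glucan and chitin, and 14 genes of the cell wall integrity pathway that ends in the MAP kinase Slt2. Each member had its own probe set on the Affymetrix Yeast Genome 2.0 array, and none of these probe sets is marked by its name as shared between genes. RNA came from haploid W303a strains of mating type a, which all lack BAR1 and share the alleles ura3-1, trp1-1, ade2-1 and can1-100 and an allele of leu2. In eco1-W216G the gene of the enzyme that acetylates cohesin was changed at its native locus, which is marked with hygromycin resistance. In scc2-D730V the gene of the cohesin loader was changed in the same manner, and wild type (WT) was the third strain. Cultures grew in rich medium (YPD+CSM) and were sampled at 0 min, then moved to synthetic medium with no amino acids and sampled at 15, 35 and 55 min. The authors describe 3 independent cultures for each strain, sampled over the course. Each strain and time thus has 3 arrays, 36 in all, and each mutant is represented by a single strain. Both mutants were set against the same WT arrays.

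The yeast wall is a mesh of beta-1,3-glucan, with shorter beta-1,6-glucan chains, a little chitin and an outer coat of mannoproteins. Many of these proteins reach the wall through a GPI anchor and beta-1,6-glucan, and the Pir proteins are bound directly to beta-1,3-glucan. When the wall is weakened, sensors of the Wsc and Mid families act through the exchange factors Rom1 and Rom2 on the small GTPase Rho1, which turns on glucan synthase and protein kinase C (Pkc1). Pkc1 starts the chain of kinases Bck1, Mkk1 and Mkk2, and Slt2, and Slt2 activates transcription factors, among them Rlm1, whose known targets include wall genes. Wall genes are also known to respond to general stress and to the cell cycle.

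Values are log2 of the deposited intensity, so a difference of 1 is a doubling, and ± gives the SD over the 3 arrays of a group. A gene was called higher or lower at an adjusted p under 0.05 from a single limma model of all 36 arrays, with no limit on fold change. Array medians lay between 10.95 and 11.14. The array readings fitted mating type a and the loss of BAR1. In eco1-W216G the ECO1 signal was low, but an expression array cannot read the W216G change itself. SCC2 gave no clear mark of scc2-D730V. SCC2 was at 11.50, 10.06, 10.13 and 10.00 in scc2-D730V at 0, 15, 35 and 55 min. In WT it was at 11.79, 9.68, 10.07 and 10.00. BAR1, which is deleted, read 4.44 to 4.89 on all arrays, markers of mating type a read 9.39 to 14.85 and markers of mating type alpha 4.92 to 8.46. At 0 min ECO1 was at 5.15 ± 0.10 in eco1-W216G, against 8.43 ± 0.37 in WT, a log2 ratio of -3.28, and the ratio was -2.33, -1.46 and -1.03 at 15, 35 and 55 min, where eco1-W216G was at 6.69 ± 0.67 and WT at 7.72 ± 0.05 at the last time. The lowest member, CRR1, had group means of 7.35 to 8.12, above BAR1. In contrast, 22 members (43.1%, against 9.51% of all probe sets) had a group mean over 14, where the brightest value in the table was 15.42, and differences between such bright values can be compressed. In cultures of mixed cells, fewer cells of a kind and less RNA per cell cannot be told apart.

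**Figure D1:**
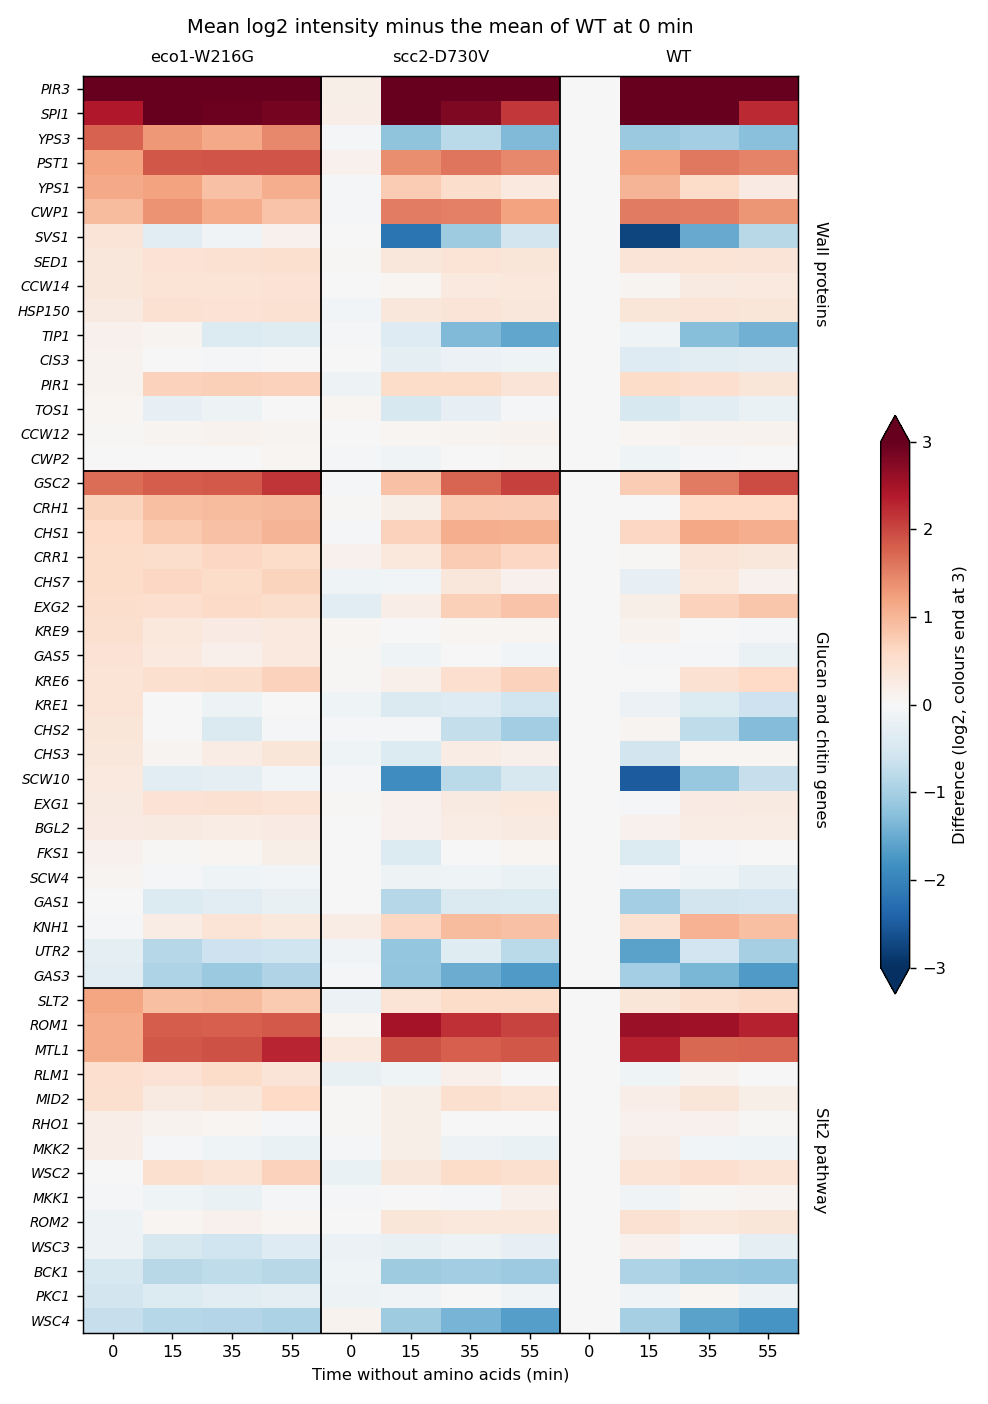
Mean log2 intensity of the 51 genes (rows, by class) in each strain over time (columns, in min), minus the mean of WT at 0 min, over 3 arrays a group. Red is higher and blue lower than WT in rich medium; PIR3 and SPI1 are red in eco1-W216G already at 0 min, and the scc2-D730V columns follow those of WT.

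In rich medium, before any starvation, many wall genes stood higher in eco1-W216G. Of the 51 members 25 were called higher (49%) and 2 lower (3.92%), while over all probe sets 13.7% were higher and 11.9% lower. The members were chosen with earlier results of these data known. From the same arrays the paper had already listed cell wall organization among the terms enriched in eco1-W216G at 0 min. The excess over all probe sets is therefore not independent support. The median log2 ratio of the members was 0.33, against -0.08 for all probe sets. By class, 9 of 16 wall protein genes and 12 of 21 glucan and chitin genes were higher and none was lower, and in the Slt2 pathway 4 of 14 were higher and 2 lower. Of the 25, 14 kept their call when any single culture was left out, and with a limit of 1.4-fold 14 were called. The count was 14 without eco1-W216G replicate 3 and also 14 without WT replicate 3. The 2 lower calls became 1 without any one of the 3 eco1-W216G cultures or without WT replicate 1 or 2, and 4 without scc2-D730V replicate 1.

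**Figure D2:**
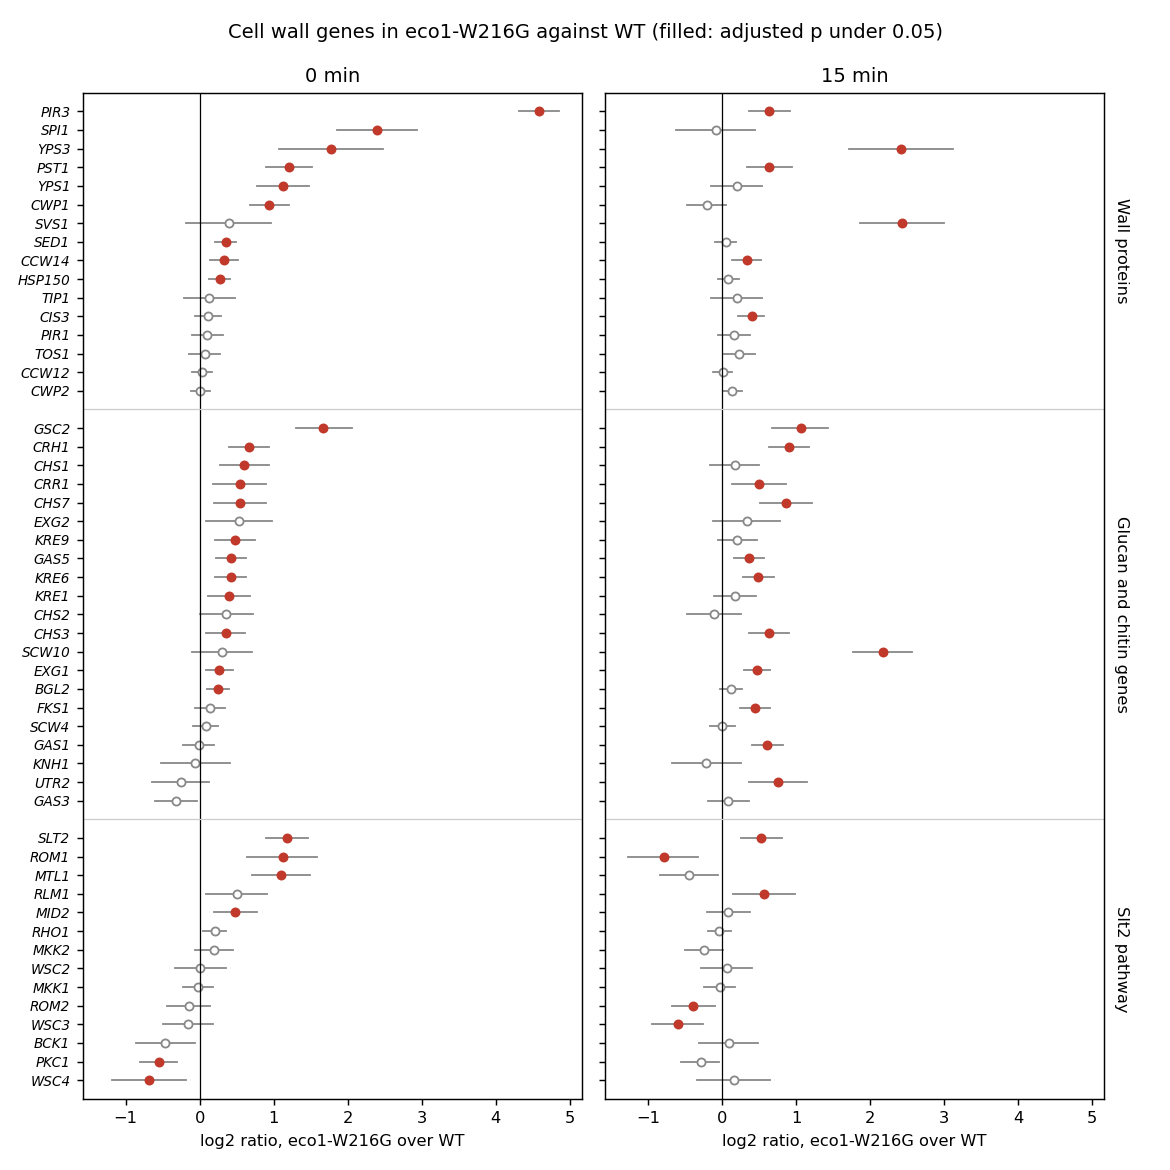
Log2 ratio of eco1-W216G over WT for each of the 51 genes, by class, at 0 min (left) and 15 min (right), with 95% confidence intervals from limma; filled points have an adjusted p under 0.05. PIR3 has the highest ratio at 0 min (4.58), and SVS1, YPS3 and SCW10 have the highest at 15 min (2.43, 2.41 and 2.17).

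Among the wall proteins, PIR3 (YKL163W), a Pir protein, had the highest ratio of all members. Its log2 intensity was 13.92, 13.75 and 14.12 in eco1-W216G and 9.47, 9.37 and 9.21 in WT at 0 min, so that the groups lay far apart (log2 ratio 4.58, standard error 0.13, adjusted p = 1.86e-20). The mutant in rich medium thus read 13.93 ± 0.19, near the 14.08 ± 0.14 that WT reached after 15 min of starvation. SPI1 (YER150W), a GPI-anchored protein known from stationary phase and weak acid stress, read 13.32, 12.53 and 13.50 in eco1-W216G and 11.46, 10.13 and 10.58 in WT (log2 ratio 2.39, standard error 0.26, adjusted p = 6.37e-08). The WT arrays of SPI1 were spread over more than 1 unit, and all lay below those of the mutant. YPS3 (YLR121C), a yapsin, which is a GPI-anchored aspartyl protease, read 11.95, 11.56 and 12.24 in eco1-W216G and 9.87, 10.55 and 10.00 in WT (log2 ratio 1.77, standard error 0.34, adjusted p = 0.000307), and its relative YPS1 rose by 1.13. PST1 (YDR055W), a GPI-anchored protein first found in the medium of regenerating protoplasts, read 13.32, 13.06 and 13.74 in eco1-W216G and 12.47, 12.07 and 11.98 in WT (log2 ratio 1.20, standard error 0.15, adjusted p = 7.72e-07).

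CWP1, a mannoprotein of the birth scar, rose by 0.94. The other 3 calls were smaller, with ratios of 0.35 for SED1, a major wall protein of stationary cells, 0.33 for CCW14, a protein of the inner wall, and 0.27 for HSP150, a Pir protein also called Pir2. Those of CCW14 and HSP150 were lost without eco1-W216G replicate 3 or WT replicate 3, and that of CCW14 also without eco1-W216G replicate 1. PIR1, another Pir protein, read 13.85, 13.92 and 14.10 in eco1-W216G and 13.88, 13.92 and 13.75 in WT, and its groups overlapped (log2 ratio 0.10, standard error 0.11, adjusted p = 0.513). The remaining members of the class, CIS3, CWP2, TIP1, CCW12, SVS1 and TOS1, had ratios of 0.01 to 0.39 and passed no test.

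Among the glucan and chitin genes GSC2 had the highest ratio. GSC2 (also called FKS2), the catalytic subunit of beta-1,3-glucan synthase that is known to be induced by stress, read 13.35, 12.92 and 13.49 in eco1-W216G and 11.44, 11.80 and 11.49 in WT (log2 ratio 1.67, standard error 0.18, adjusted p = 6.37e-08). FKS1, the subunit used in growing cells, read 14.39, 14.23 and 14.35 in eco1-W216G and 14.19, 14.19 and 14.17 in WT at the same time and passed no test (log2 ratio 0.14, standard error 0.10, adjusted p = 0.33). CRH1, a transglycosylase that links chitin to glucan, read 13.85, 13.77 and 13.99 in eco1-W216G and 13.17, 13.39 and 13.06 in WT (log2 ratio 0.66, standard error 0.13, adjusted p = 0.000364).

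Of the chitin genes, CHS1, the synthase that repairs the wall after cells part, had a ratio of 0.60 (adjusted p = 0.0069), although its arrays overlapped between strains and the call was lost without replicate 3 of either strain. CHS7, whose product lets the synthase Chs3 leave the endoplasmic reticulum, read 12.95, 12.79 and 13.06 in eco1-W216G and 12.53, 12.39 and 12.25 in WT (log2 ratio 0.54, standard error 0.17, adjusted p = 0.0212). CHS3, which makes most of the chitin of the cell, read 13.40, 13.12 and 13.33 in eco1-W216G and 12.96, 13.00 and 12.85 in WT and was just inside the threshold (log2 ratio 0.35, standard error 0.13, adjusted p = 0.0483). The groups of CHS7 and CHS3 did not overlap. Each of the 2 calls, however, was lost without eco1-W216G replicate 1 or 3 and without WT replicate 2 or 3, and that of CHS3 also without WT replicate 1. CHS2, the synthase of the primary septum, had a ratio of 0.36 and an adjusted p of 0.132.

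Genes of beta-1,6-glucan were called as well. KRE9 read 13.30, 13.32 and 13.40 in eco1-W216G and 13.01, 12.82 and 12.78 in WT (log2 ratio 0.47, standard error 0.13, adjusted p = 0.00829), and the call was lost without eco1-W216G replicate 3 or WT replicate 3. KRE6 and KRE1 had ratios of 0.42 and 0.40, and GAS5, a beta-1,3-glucan elongase, 0.42. The call of KRE1 was lost without any one of the eco1-W216G or WT cultures. KNH1, a homologue of KRE9, had a ratio of -0.06 and was not called. The exoglucanase EXG1 and the glucanase BGL2 were called at ratios of 0.26 and 0.25, and both calls were lost without eco1-W216G replicate 1 or 3 or WT replicate 3. CRR1, a transglycosylase known from the spore wall, was called at 0.54 with overlapping arrays, and the call was lost when replicate 1 or 3 of eco1-W216G or replicate 2 or 3 of WT was left out. GAS3, UTR2, GAS1, SCW4, SCW10 and EXG2 had ratios between -0.32 and 0.53 and were not called.

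Within the Slt2 pathway, members at the same step differed in direction. SLT2 (YHR030C), the MAP kinase, read 13.06, 13.01 and 13.35 in eco1-W216G and 12.01, 12.05 and 11.83 in WT (log2 ratio 1.18, standard error 0.14, adjusted p = 1.5e-07). Of the sensors, MTL1 read 10.38, 9.84 and 10.44 in eco1-W216G and 8.98, 9.22 and 9.14 in WT (log2 ratio 1.10, standard error 0.19, adjusted p = 7.37e-05) and MID2 12.74, 12.50 and 12.67 in eco1-W216G and 12.29, 12.05 and 12.14 in WT (log2 ratio 0.48, standard error 0.14, adjusted p = 0.0141). WSC4 went the other way, at 10.43, 10.39 and 9.99 in eco1-W216G and 11.00, 11.29 and 10.57 in WT (log2 ratio -0.68, standard error 0.24, adjusted p = 0.0371). The call of WSC4 was lost without any one of the eco1-W216G cultures or WT replicate 1 or 2, and that of MID2 without replicate 1 or 3 of eco1-W216G or replicate 2 or 3 of WT, while MTL1 and SLT2 kept theirs without any single culture.

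One of the exchange factors for Rho1 was called. ROM1 read 9.87, 9.33 and 9.86 in eco1-W216G and 8.54, 8.67 and 8.50 in WT (log2 ratio 1.12, standard error 0.23, adjusted p = 0.000618), whereas its paralogue ROM2 had a ratio of -0.15 (adjusted p = 0.462). PKC1, the kinase at the head of the cascade, was lower in all mutant arrays, at 10.50, 10.37 and 10.44 in eco1-W216G and 10.95, 10.99 and 11.04 in WT (log2 ratio -0.55, standard error 0.12, adjusted p = 0.00149). RHO1 read 13.80, 13.91 and 13.83 in eco1-W216G and 13.66, 13.68 and 13.59 in WT, just outside the threshold (log2 ratio 0.20, standard error 0.08, adjusted p = 0.0508). RLM1, the transcription factor, read 10.43, 10.14 and 10.74 in eco1-W216G and 10.00, 9.89 and 9.93 in WT and also missed it (log2 ratio 0.50, standard error 0.20, adjusted p = 0.0697). BCK1 had a ratio of -0.47 (adjusted p = 0.0731), and MKK1, MKK2, WSC2 and WSC3 had ratios between -0.16 and 0.19 with no call.

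Other gene groups moved in the same comparison. In eco1-W216G at 0 min all 18 genes of a list of general stress genes, of the type driven by Msn2 and Msn4, were higher, with a median log2 ratio of 2.05. Of 8 genes that peak between mitosis and G1, 6 were lower, with a median of -0.61, while 1 of 6 G1/S genes was lower and none of 6 G2/M genes was called. The part of these groups in the ratios of the wall genes was not tested.

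The scc2-D730V strain showed no such pattern. At 0, 15, 35 and 55 min no member was called higher or lower against WT by limma (background 0% higher and 0.0347% lower at each time), and at an unadjusted p under 0.05 there were 0, 4, 1 and 0 members. PIR3 read 9.63, 9.61 and 9.30 in scc2-D730V at 0 min, against 9.47, 9.37 and 9.21 in WT. GSC2 read 11.34, 11.89 and 11.43 in scc2-D730V and 11.44, 11.80 and 11.49 in WT, and SLT2 11.63, 11.97 and 11.77 in scc2-D730V and 12.01, 12.05 and 11.83 in WT. Thus none of the 3 genes approached its level in eco1-W216G. The ratios of all members lay between -0.41 and 0.62 over the 4 times, and the 95% intervals had a median half-width of 0.28 at each time. The highest ratio was that of SCW10 at 15 min, with 12.67, 12.05 and 11.64 in scc2-D730V and 11.41, 11.52 and 11.58 in WT, a log2 ratio of 0.62 (adjusted p = 1). No array of scc2-D730V was below the highest of WT there.

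Set against each other, the mutants differed at 0 min. In eco1-W216G 25 members were higher than in scc2-D730V (49%, background 12.9%) and 2 were lower (3.92%, background 9.37%), with a median log2 ratio of 0.36. The 25 became 16 without eco1-W216G replicate 3. The 2 lower calls became 0 without that culture or scc2-D730V replicate 2, and 1 without eco1-W216G replicate 2 or scc2-D730V replicate 3. Both comparisons use the same eco1-W216G arrays. PIR3 read 13.92, 13.75 and 14.12 in eco1-W216G and 9.63, 9.61 and 9.30 in scc2-D730V, and the mutants thus lay far apart.

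After 15 min without amino acids, SVS1, YPS3 and SCW10 led the difference, and most of the called members were glucan and chitin genes. In eco1-W216G 20 members were higher than in WT (39.2%, background 18.8%) and 3 lower (5.88%, background 22.7%), with a median log2 ratio of 0.17 against -0.08 for all probe sets. The glucan and chitin genes held 12 of the 20 and had a median of 0.45, while 6 of 16 wall protein genes were higher. In the Slt2 pathway 2 were higher and 3 lower. Of the 25 members higher at 0 min, 13 were also higher at 15 min, an overlap that was not counted over all probe sets. Between 18 and 21 members were called higher whichever culture was left out. Of lower calls there was 1 with eco1-W216G replicate 1 left out, and there were 5 with scc2-D730V replicate 1 left out.

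SVS1 (YPL163C), a serine- and threonine-rich wall protein named for vanadate sensitivity, read 12.67, 12.52 and 12.70 in eco1-W216G and 10.05, 10.13 and 10.43 in WT at 15 min (log2 ratio 2.43, standard error 0.28, adjusted p = 2.76e-07). SCW10, a wall protein related to glucanases, read 13.86, 13.54 and 13.63 in eco1-W216G and 11.41, 11.52 and 11.58 in WT (log2 ratio 2.17, standard error 0.20, adjusted p = 5.66e-09). Neither had been called at 0 min, where SVS1 read 13.35 ± 0.10 in eco1-W216G and 12.96 ± 0.17 in WT, and SCW10 14.29 ± 0.10 and 13.99 ± 0.23. The difference at 15 min came with a large fall in WT and a small one in the mutant. SVS1 changed by -0.72 over 15 min in eco1-W216G and by -2.76 in WT, and SCW10 by -0.61 and -2.48. In the same comparison 4 of the 6 G1/S genes were higher in eco1-W216G, with a median of 0.53, and in WT 5 of the 6 fell on starvation, with a median change of -1.29. Their part in the result of SVS1 and SCW10 was not tested.

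YPS3 was again higher, at 11.44, 11.44 and 11.44 in eco1-W216G and 8.58, 9.37 and 9.13 in WT (log2 ratio 2.41, standard error 0.34, adjusted p = 4.28e-06). PIR3, in contrast, had nearly met WT, at 14.79, 14.81 and 14.56 in eco1-W216G and 14.12, 14.19 and 13.93 in WT (log2 ratio 0.64, standard error 0.13, adjusted p = 0.000386), though the groups still did not overlap. PST1 read 14.03, 14.21 and 13.89 in eco1-W216G and 13.36, 13.46 and 13.38 in WT (log2 ratio 0.64, standard error 0.15, adjusted p = 0.00133). SPI1 no longer differed beyond its spread, with 14.27, 14.37 and 14.20 in eco1-W216G and 14.45, 14.46 and 14.19 in WT and a ratio of -0.08 (95% interval -0.62 to 0.45). PIR1 had a ratio of 0.16 (adjusted p = 0.233). CIS3 and CCW14 were called higher at 0.40 and 0.34.

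GSC2 and FKS1, which encode alternative catalytic subunits of glucan synthase, were both higher at this time. GSC2 read 13.30, 13.29 and 13.57 in eco1-W216G and 11.95, 12.57 and 12.47 in WT (log2 ratio 1.06, standard error 0.18, adjusted p = 4.81e-05) and FKS1 14.15, 14.27 and 14.25 in eco1-W216G and 13.64, 13.78 and 13.91 in WT (log2 ratio 0.45, standard error 0.10, adjusted p = 0.000794). CRH1 read 14.09, 14.25 and 14.03 in eco1-W216G and 13.06, 13.31 and 13.30 in WT (log2 ratio 0.90, standard error 0.13, adjusted p = 5.72e-06), and its relative UTR2 was higher by 0.75 with a WT spread of 0.56 (SD). CHS7 read 13.08, 13.19 and 12.76 in eco1-W216G and 11.97, 12.29 and 12.19 in WT (log2 ratio 0.86, standard error 0.17, adjusted p = 0.000252) and CHS3 12.94, 13.06 and 13.09 in eco1-W216G and 12.16, 12.49 and 12.55 in WT (log2 ratio 0.63, standard error 0.13, adjusted p = 0.000306). GAS1, the main glucan elongase, KRE6 and EXG1 were higher by 0.61, 0.49 and 0.47, and GAS5 and CRR1 by 0.36 and 0.50. The call of CRR1 was lost when replicate 1 or 3 of eco1-W216G or replicate 1 of WT was left out. CHS2 and CHS1 were not called, with ratios of -0.11 and 0.17.

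In the pathway SLT2 remained higher, at 12.87, 12.81 and 12.91 in eco1-W216G and 12.46, 12.22 and 12.32 in WT (log2 ratio 0.53, standard error 0.14, adjusted p = 0.00246). RLM1, at 10.18, 10.27 and 10.65 in eco1-W216G and 9.68, 9.62 and 10.10 in WT, was now within the threshold (log2 ratio 0.57, standard error 0.20, adjusted p = 0.0264), a call that was lost without eco1-W216G replicate 3, WT replicate 1 or WT replicate 2. ROM1 had turned, at 10.00, 10.59 and 10.54 in eco1-W216G and 11.06, 11.23 and 11.21 in WT (log2 ratio -0.79, standard error 0.23, adjusted p = 0.00712), and its call was lost without eco1-W216G replicate 1. WSC3, a sensor, was lower, at 11.46, 11.83 and 11.45 in eco1-W216G and 12.14, 12.23 and 12.17 in WT (log2 ratio -0.60, standard error 0.17, adjusted p = 0.00483), and ROM2 was lower, with a ratio of -0.39 and overlapping arrays, a call lost when replicate 1 of eco1-W216G or replicate 2 or 3 of WT was left out. PKC1 and RHO1 were not called, with ratios of -0.29 (adjusted p = 0.0621) and -0.04 (adjusted p = 0.727).

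**Figure D3:**
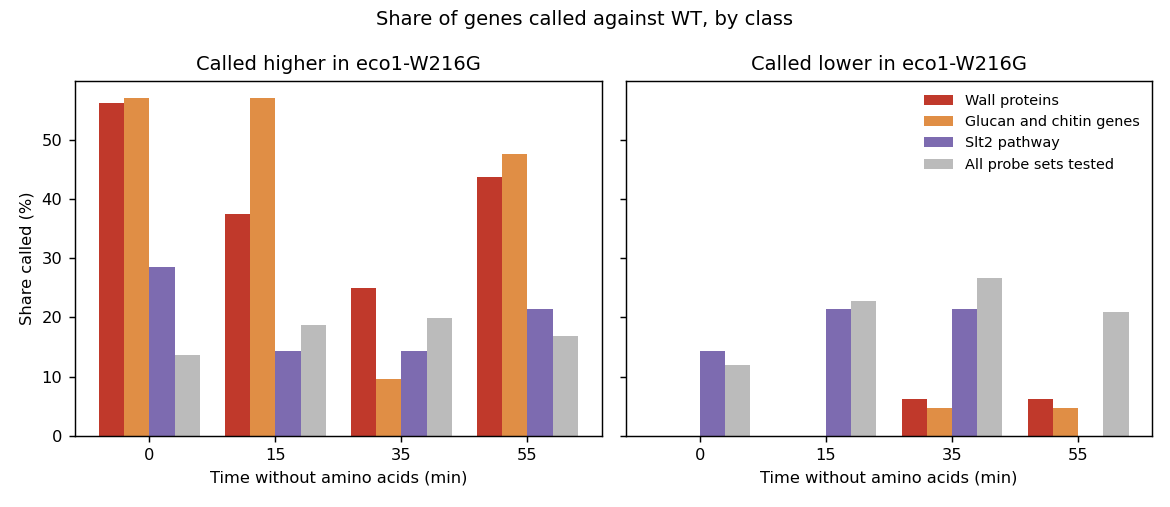
Share (%) of the 16 wall protein genes, 21 glucan and chitin genes and 14 Slt2 pathway genes called higher (left) or lower (right) in eco1-W216G against WT at each time, beside the share of all 5763 probe sets tested. At 0 min 56.2% of wall protein genes and 57.1% of glucan and chitin genes were higher, against 13.7% of all probe sets, and at 35 min both shares lie nearer to the 19.9% of all probe sets.

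At 35 min fewer members were called. In eco1-W216G 8 were higher (15.7%, background 19.9%) and 5 lower (9.8%, background 26.6%), with a median log2 ratio of 0.16. The share of higher members was thus under that of all probe sets, as was the share of lower ones. The number of higher members was 22 with array weights and 13 with quantile normalization applied again. YPS3 and SVS1 led the wall proteins. YPS3 read 11.49, 10.97 and 11.35 in eco1-W216G and 8.83, 9.55 and 8.96 in WT (log2 ratio 2.16, standard error 0.34, adjusted p = 1.34e-05), and SVS1 12.81, 12.92 and 12.85 in eco1-W216G and 11.60, 10.75 and 11.96 in WT (log2 ratio 1.42, standard error 0.28, adjusted p = 0.000153). CWP1 was lower, at 14.12, 14.23 and 13.90 in eco1-W216G and 14.45, 14.50 and 14.51 in WT (log2 ratio -0.41, standard error 0.13, adjusted p = 0.00997).

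Of the glucan genes at 35 min, SCW10 read 13.84, 13.59 and 13.67 in eco1-W216G and 13.15, 12.34 and 13.04 in WT (log2 ratio 0.85, standard error 0.20, adjusted p = 0.000789) and CRH1 14.14, 14.26 and 14.06 in eco1-W216G and 13.88, 13.65 and 13.89 in WT (log2 ratio 0.35, standard error 0.13, adjusted p = 0.0319). KNH1 was lower, at 9.34, 9.72 and 9.32 in eco1-W216G and 9.83, 10.20 and 10.23 in WT (log2 ratio -0.63, standard error 0.23, adjusted p = 0.0249). In the pathway WSC4 was now higher, at 10.00, 10.14 and 10.12 in eco1-W216G and 9.02, 9.81 and 9.23 in WT (log2 ratio 0.73, standard error 0.24, adjusted p = 0.0139), and SLT2 too, at 12.75, 13.08 and 12.94 in eco1-W216G and 12.54, 12.41 and 12.38 in WT (log2 ratio 0.48, standard error 0.14, adjusted p = 0.00493). ROM1, at 10.55, 10.15 and 10.39 in eco1-W216G and 10.87, 11.46 and 10.99 in WT, and WSC3, at 11.66, 11.26 and 11.46 in eco1-W216G and between 11.87 and 12.06 in WT, were lower (log2 ratio -0.74, standard error 0.23, adjusted p = 0.00968, and log2 ratio -0.52, standard error 0.17, adjusted p = 0.0115). PKC1 was lower too, with a ratio of -0.37. The count of lower members was 1 without WT replicate 2 and 3 when either replicate 1 or 2 of eco1-W216G or replicate 3 of WT was left out, and 5 of the 13 calls, those of TIP1, SVS1, YPS3, SCW10 and SLT2, were kept without any single culture. The 6 G2/M genes were all higher in eco1-W216G at 35 min, with a median of 0.82, and their part was not tested.

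At 55 min 20 members were higher in eco1-W216G (39.2%, background 16.8%) and 2 lower (3.92%, background 21%), with a median log2 ratio of 0.22. Of the 20 at 15 min and the 20 at 55 min, 9 were the same genes, an overlap that was not counted over all probe sets. YPS3 read 11.60, 11.70 and 11.45 in eco1-W216G and 8.27, 9.43 and 8.94 in WT (log2 ratio 2.71, standard error 0.34, adjusted p = 1.04e-06). TIP1, a mannoprotein induced by temperature shock, read 13.77, 13.91 and 13.82 in eco1-W216G and 12.36, 13.05 and 12.82 in WT (log2 ratio 1.09, standard error 0.17, adjusted p = 1.74e-05). At 0 min its arrays had overlapped, at 14.26, 14.45 and 14.26 in eco1-W216G and 13.90, 14.36 and 14.32 in WT. CHS2 read 11.92, 11.67 and 11.77 in eco1-W216G and 10.33, 10.57 and 10.66 in WT (log2 ratio 1.27, standard error 0.17, adjusted p = 3.23e-06), and its groups lay far apart. GAS3 read 12.20, 12.25 and 12.05 in eco1-W216G and 11.15, 11.57 and 11.37 in WT (log2 ratio 0.80, standard error 0.14, adjusted p = 5.47e-05). In the same comparison 5 of the 6 G2/M genes were higher, with a median of 0.72, and their part was not tested.

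The lower calls at 55 min were CWP1, at 13.80, 14.03 and 13.60 in eco1-W216G and 14.13, 14.46 and 14.24 in WT (log2 ratio -0.46, standard error 0.13, adjusted p = 0.00511), and KNH1, at 9.09, 9.73 and 9.28 in eco1-W216G and 9.81, 9.74 and 10.29 in WT (log2 ratio -0.58, standard error 0.23, adjusted p = 0.0454). In the pathway WSC4, at 9.86, 9.91 and 10.23 in eco1-W216G and 9.03, 9.39 and 9.11 in WT (log2 ratio 0.82, standard error 0.24, adjusted p = 0.00848), MTL1, at 11.27, 11.44 and 11.46 in eco1-W216G and 10.56, 10.99 and 11.03 in WT (log2 ratio 0.53, standard error 0.19, adjusted p = 0.0295), and MID2, with a ratio of 0.42, were higher. PIR1 passed the test at this time alone, at 14.52, 14.61 and 14.50 in eco1-W216G and 14.07, 14.30 and 14.26 in WT (log2 ratio 0.34, standard error 0.11, adjusted p = 0.0141). Many of these calls rested on single cultures. The number of higher calls was 11 when replicate 1 of eco1-W216G was left out, 12 when replicate 2 of eco1-W216G, or replicate 1 or 2 of WT, was left out, and 13 when replicate 3 of eco1-W216G was. The 2 lower calls became 0 without WT replicate 2, and 1 without eco1-W216G replicate 1 or 3, scc2-D730V replicate 2 or WT replicate 3. Of the 22 calls, 7 were kept without any single culture, those of TIP1, YPS1, YPS3, GAS3, GAS5, KRE1 and CHS2.

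Over the whole course 42 members were called at 1 or more times. YPS3 and CRH1 were higher at all 4 times, 9 members were higher at 3 or more, and none was lower at 3 or more. Calls at several times were not counted over all probe sets. Whether these counts exceed the background was therefore not tested. CWP1, ROM1 and WSC4 were called in opposite directions at different times. CWP1 and ROM1 were higher in the mutant at 0 min and lower later, and WSC4 was lower at 0 min and higher at 35 and 55 min. The lower calls of CWP1 and ROM1 and every call of WSC4 were each lost when 1 or another single culture was left out. So were those of CRH1 at 35 and 55 min. The 9 members called at no time were CWP2, CCW12, TOS1, EXG2, WSC2, RHO1, BCK1, MKK1 and MKK2. CCW12 and CWP2, both abundant GPI-anchored proteins, had group means of 14.85 to 14.96 and 14.69 to 14.88, among the brightest on the array. Compression of the signal at that level was not tested.

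**Figure D4:**
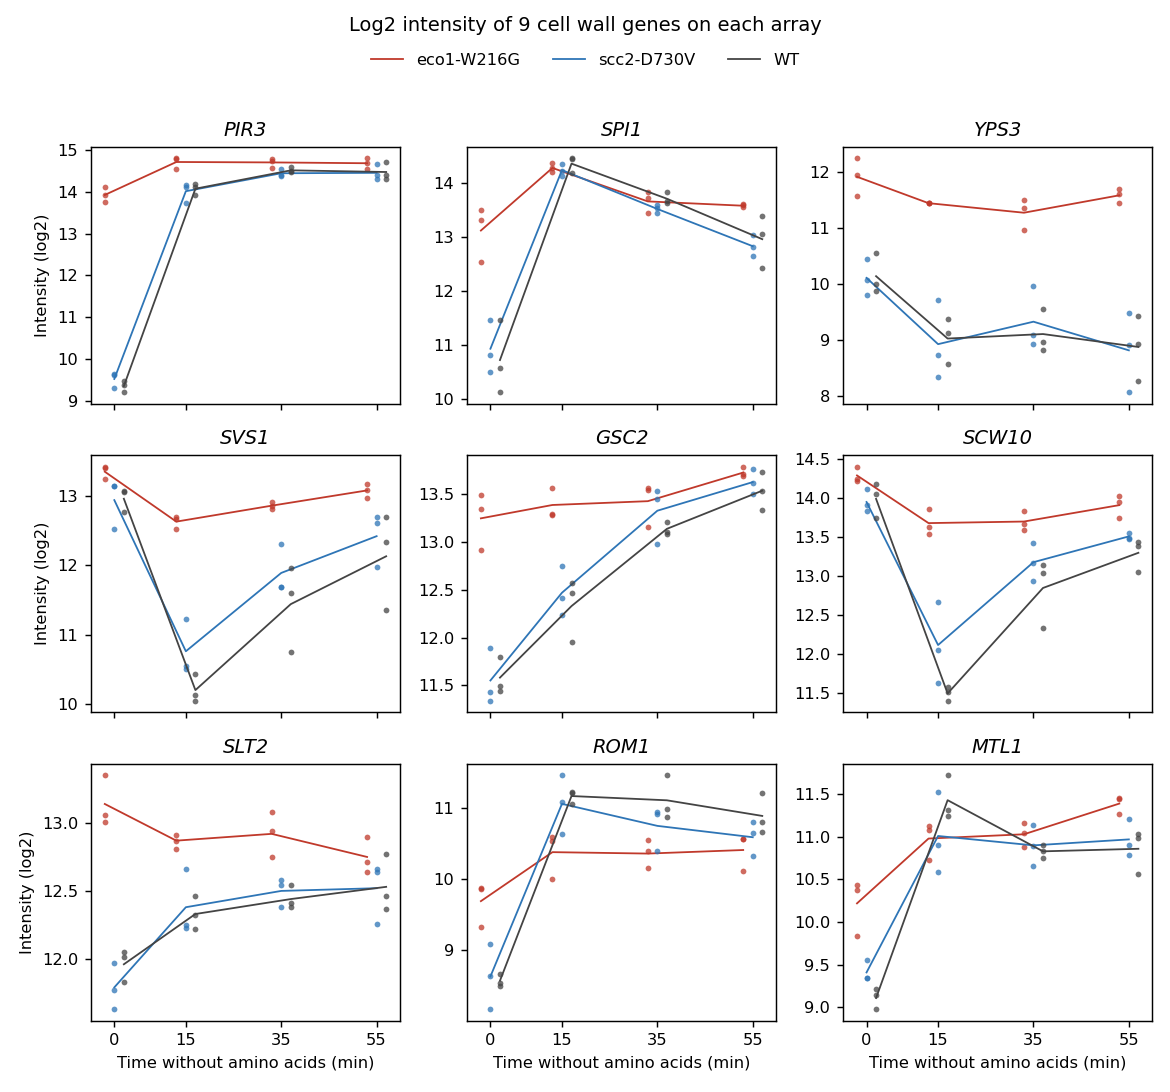
Log2 intensity of 9 genes on each of the 36 arrays (points) against time without amino acids in min, with lines through the group means of eco1-W216G, scc2-D730V and WT; points are shifted sideways for clarity. PIR3 and SPI1 start high in eco1-W216G and lie near WT after the shift, SVS1 and SCW10 fall in WT and less in eco1-W216G, and YPS3 stays above both other strains at all times.

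Starvation itself moved wall genes in WT, in proportions below those of the genome at 15 min. Of the 51 members 15 rose (29.4%, background 37%) and 12 fell (23.5%, background 36.4%) over 15 min. At 35 min 23 were higher than at 0 min (45.1%, background 36.7%) and 13 lower (25.5%, background 35.9%). At 55 min 21 were higher (41.2%, background 36%) and 13 lower (25.5%, background 35.2%). The share of higher members was thus somewhat above that of all probe sets at both later times, and the share of lower ones below it. The 23 became 18 without WT replicate 1 or 3, and the 21 became 16 without WT replicate 3. The 13 lower became 11 at 35 min without WT replicate 1 or 2, and 9 at 55 min without WT replicate 2. Whether the shares differ from the background was not tested. PIR3 was at 14.12, 14.19 and 13.93 at 15 min and 9.47, 9.37 and 9.21 at 0 min, a change of 4.73 (adjusted p = 2.6e-21). SPI1 changed by 3.64 (adjusted p = 8.49e-13), and its WT arrays at the 2 times lay far apart. SVS1 changed by -2.76 (adjusted p = 7.67e-10) and YPS3 by -1.11 (adjusted p = 0.00509). All 18 general stress genes rose in WT over these 15 min, with a median change of 4.46, and their part was not tested.

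Of the glucan and chitin genes in WT, GSC2 read 11.95, 12.57 and 12.47 at 15 min and 11.44, 11.80 and 11.49 at 0 min, a change of 0.75 (adjusted p = 0.000622). CHS1 read 12.51, 12.86 and 12.74 at 15 min and 12.33, 12.10 and 11.86 at 0 min, a change of 0.61 (adjusted p = 0.0013). SCW10 fell by 2.48 (adjusted p = 5.2e-12), and UTR2, at 12.56, 12.01 and 13.14 at 15 min and 14.18, 14.26 and 14.06 at 0 min, fell by 1.60 (adjusted p = 1.37e-08). In the pathway ROM1 rose by 2.60 (adjusted p = 6.27e-11) and MTL1 by 2.31 (adjusted p = 1.41e-11). WSC4, at 9.58, 10.33 and 9.92 at 15 min and 11.00, 11.29 and 10.57 at 0 min, fell by 1.00 (adjusted p = 0.000501), and BCK1, at 9.84, 9.99 and 10.28 at 15 min and 10.78, 10.97 and 11.15 at 0 min, fell by 0.93 (adjusted p = 9.67e-05). Thus MTL1 rose and WSC4 fell, although both encode sensors.

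In the mutants unequal numbers of members moved. In scc2-D730V 16 members rose (31.4%, background 36.4%) and 12 fell (23.5%, background 34.8%) over 15 min. Of these, 15 of the 16 and 11 of the 12 were called the same way in WT. In eco1-W216G 9 rose (17.6%, background 23.4%) and 7 fell (13.7%, background 26.8%). The 9 were all among the 15 of WT, 6 of the 7 were among the 12 of WT, and no member was called in opposite directions. Such overlaps between strains were not counted over all probe sets. Whether they exceed the background was therefore not tested. The median size of the change over 15 min was 0.21 in eco1-W216G, 0.34 in scc2-D730V and 0.37 in WT, while over all probe sets it was 0.42, 0.73 and 0.77. Changes of 1 or more were seen in 1 member in eco1-W216G (SPI1), 12 in scc2-D730V and 14 in WT. They were not counted over all probe sets, whose median change was also smaller in eco1-W216G. This contrast is therefore not shown to be particular to the members. The counts in eco1-W216G rest on few cultures. Leaving out eco1-W216G replicate 2 gave 3 higher and 4 lower, and leaving out its replicate 1 or 3 gave 3 lower.

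At later times the counts in eco1-W216G against its own 0 min were 6 higher and 10 lower at 35 min (background 23.3% and 26.4%) and 11 higher and 6 lower at 55 min (background 23.6% and 25.6%). Leaving out eco1-W216G replicate 1 gave 6 in place of the 10, and leaving out replicate 2 gave 3. The 11 became 6 without replicate 1 and 5 without replicate 2, and the 6 at 55 min became 2 without replicate 1 or 3 and 1 without replicate 2. In scc2-D730V 25 were higher (49%, background 36.7%) and 10 lower (19.6%, background 33.6%) at 35 min. At 55 min 23 were higher (45.1%, background 35.9%) and 11 lower (21.6%, background 32.8%). No single culture moved these counts of scc2-D730V by over 1.5 times.

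**Figure D5:**
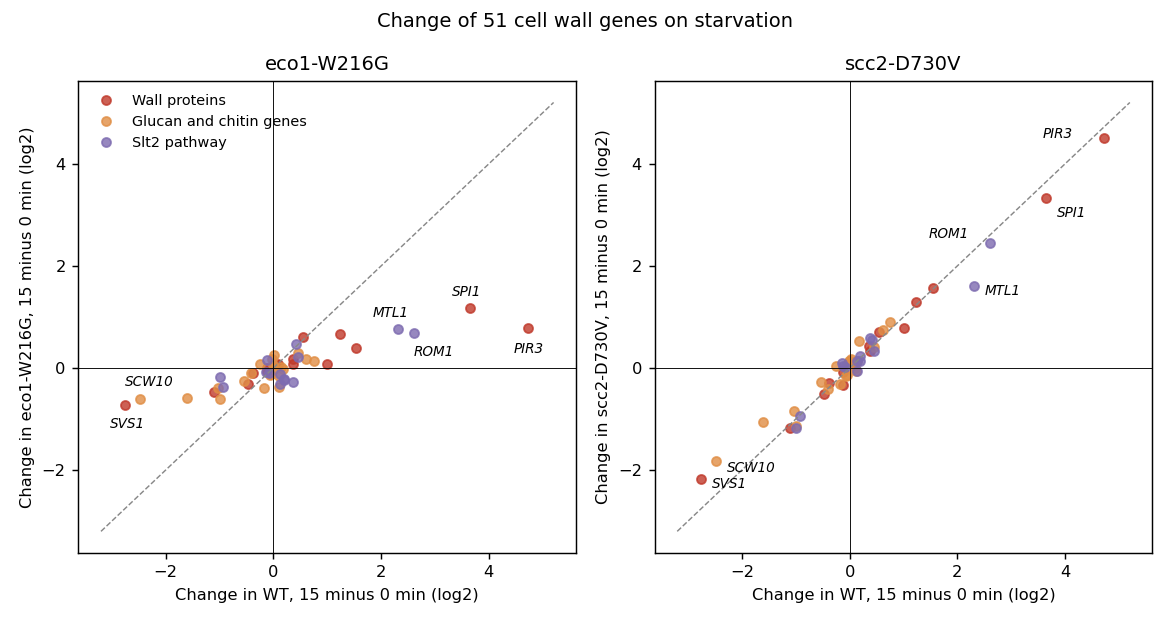
Change in log2 intensity over 15 min of starvation for each of the 51 genes in eco1-W216G (left) and in scc2-D730V (right), on the vertical axis, against the change in WT on the horizontal axis; the broken line marks equal changes and each point is a gene. In eco1-W216G the genes that moved most in WT lie nearer to 0, for example PIR3 at 0.79 against 4.73 in WT and SVS1 at -0.72 against -2.76, and in scc2-D730V they lie close to the line.

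The difference between the changes was tested directly. Over 15 min the change in eco1-W216G was above that in WT for 4 members (7.84%, background 17.4%) and below it for 9 (17.6%, background 18.1%), so that the share of members was at or under the background. Over 55 min it was above for 5 (9.8%, background 15.6%) and below for 10 (19.6%, background 17.1%). The 10 became 6 without eco1-W216G replicate 3 or WT replicate 2. PIR3 changed by 0.79 in eco1-W216G and by 4.73 in WT, a difference of -3.94 (adjusted p = 1.08e-14). The mutant had been at 13.93 at 0 min, and at 15 min both strains were at the bright end of the scale. ROM1 rose by 0.69 in eco1-W216G and by 2.60 in WT (-1.91, adjusted p = 5.9e-05), and here the mutant began above WT and ended below it. These contrasts share their 0 min arrays with the comparisons of strains at 0 min. Over 15 min, all 18 general stress genes had a smaller change in eco1-W216G than in WT, by a median of -2.66, and their part was not tested.

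Among the members, 4 pairs of genes are neighbours on a chromosome in the RefSeq annotation of assembly R64: PIR1 and PIR3, CWP2 and CWP1, YPS1 and YPS3, and HSP150 and CIS3. In rich medium the ratio of PIR3 was 4.58 (95% interval 4.31 to 4.85) and that of PIR1 0.10 (-0.11 to 0.32). CWP1 and CWP2 behaved likewise, with 0.94 (0.68 to 1.20) and 0.01 (-0.12 to 0.14). In both pairs the intervals do not meet. The partners that were not called were bright in WT, with 13.85 ± 0.09 for PIR1 and 14.82 on each array for CWP2. The yapsins YPS1 and YPS3 both rose in rich medium, but at 15 min YPS3 had a ratio of 2.41 (1.71 to 3.12) and YPS1 0.20 (-0.15 to 0.54). HSP150 was called at 0 min alone, at 0.27, and CIS3 at 15, 35 and 55 min, at 0.40, 0.30 and 0.29.

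Genes of the same pathways outside the 51 were counted from separate lists. Of 18 other genes of the integrity pathway, 3 were higher in eco1-W216G at 0 min (16.7%, background 13.7%) and 4 lower (22.2%, background 11.9%), with a median of -0.13. The higher ones were BAG7 (3.21), PTP2 (1.25) and SDP1 (0.99), a GTPase-activating protein for Rho1 and a pair of phosphatases that act on Slt2, and the lower ones were LRG1 (-0.96) and SAC7 (-0.52), also GTPase-activating proteins, SWI6 (-0.52), a transcription factor subunit, and PTP3 (-0.56), a tyrosine phosphatase. The arrays of SDP1 (adjusted p = 0.0413 in limma) and of PTP3 overlapped between the strains. MSG5, a further phosphatase of the list, had a ratio of -0.04 at 0 min and was not called. SLG1, the sensor also called Wsc1, had a ratio of -0.17 at 0 min and was not called. At 15 min 1 of the 18 was higher (5.56%, background 18.8%) and 5 were lower (27.8%, background 22.7%), with a median of -0.30. BAG7 and SDP1 were then called lower, at -1.04 and -1.49, and SDP1 was lower at 35 and 55 min too, at -1.57 and -1.43, while BAG7 was not called at those times (-0.34 and 0.69). PTP2 had ratios of 0.40, 0.42 and 0.52 at 15, 35 and 55 min and was called again at 55 min. Of 10 genes of chitin precursors and of Chs3 delivery, CHS6 (0.57), GFA1 (0.48) and PCM1 (0.29) were higher at 0 min (30%) and none was lower. GFA1 makes glucosamine-6-phosphate, the entry step of chitin precursors, and CHS6 helps Chs3 to the cell surface.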

How the data were processed

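Expression was measured on Affymetrix Yeast Genome 2.0 arrays. The authors ran RMA (background correction, quantile normalization and summary of probes) and deposited 1 linear intensity per probe set and array. For RMA no version was given in the sources used here. Intensities were taken to log2 here. The 51 control probe sets of the manufacturer were left out, and the 5763 others were tested in 1 limma model (limma 3.58.1, R 4.3.3) with a coefficient for each of the 12 groups and Benjamini-Hochberg adjustment within each contrast. The labels call the 3 arrays of a group separate cultures, and their number limits the precision. The main fit held no term for culture, so changes over time were not paired within a culture. The fit was tested on simulated data.

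Genes were matched by symbol through the platform annotation. Members and gene lists were chosen with earlier results of these data known. Members given in full were the called ones with the largest changes in each class whose arrays did not overlap between groups, up to 4 higher and 3 lower at 0 and 15 min, 2 and 2 elsewhere, and PIR1, PIR3, GSC2, FKS1, CHS3, SLT2, RLM1, PKC1 and RHO1. Alternatives covered normalization, dim probe sets, variance model, array weights, blocks, thresholds and leaving out each culture at all its times, which assumes that a replicate number within a strain is 1 culture followed over time. Reporter probe sets were left out in an alternative chosen after seeing the data. Promoter sequences were not analysed here.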

Additional observations from a re-analysis of the deposited data

Results flagged for a closer look

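The response to starvation of 13 members over 15 min and 15 over 55 min differed between eco1-W216G and WT in the test of the difference itself, a contrast of the 2 changes in the limma model at an adjusted p under 0.05. Over 15 min 7.84% of the 51 members had a positive difference and 17.6% a negative one, against 17.4% and 18.1% of all probe sets, and over 55 min 9.8% and 19.6%, against 15.6% and 17.1%. Values in brackets are the log2 change in eco1-W216G minus that in WT. Over 15 min the difference was negative for PIR3 (-3.94), SPI1 (-2.47), ROM1 (-1.91), MTL1 (-1.55), CWP1 (-1.14), YPS1 (-0.93), SLT2 (-0.65), PST1 (-0.56) and SED1 (-0.30). These included wall proteins tied to stress, the kinase SLT2 and the upstream genes ROM1 and MTL1. It was positive for SVS1 (2.04), SCW10 (1.87), UTR2 (1.01) and GAS1 (0.63), which encode a wall protein and enzymes or relatives of enzymes that remodel glucan.

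Over 55 min the difference was negative for PIR3 (-4.37), SPI1 (-1.77), ROM1 (-1.60), GSC2 (-1.48), CWP1 (-1.40), SLT2 (-0.97), EXG2 (-0.83), PST1 (-0.79), CHS1 (-0.66) and SED1 (-0.26). It was positive for WSC4 (1.50), GAS3 (1.12), TIP1 (0.96), CHS2 (0.91) and BCK1 (0.80). PIR3, CWP1, SED1, SPI1, PST1, ROM1 and SLT2 had a negative difference at both times. These contrasts use the 0 min arrays of both strains, in which these 7 genes were higher in eco1-W216G. In eco1-W216G all 18 general stress genes also had a smaller change than in WT over 15 min (median -2.66), and their part in the differences was not tested.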

How the results depend on the processing

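The 40 counts of members called were recomputed under 12 other settings. Of the 480 values, 432 lay within 1.5 times the main count. The others follow, with the main count in brackets; unless another contrast is named, they compare eco1-W216G with WT, and the cause was not tested. At an adjusted p under 0.01 the lower members were 1 at 0 min (2), 2 at 35 min (5) and 1 at 55 min (2), and the higher ones at 55 min 9 (20). With that threshold, 0 were lower than in scc2-D730V at 0 min (2), and the changes in eco1-W216G were 5 higher and 2 lower over 15 min (9 and 7), 4 lower over 35 min (10) and 5 higher and 2 lower over 55 min (11 and 6). With a limit of 1.4-fold 14 were higher at 0 min (25), 5 higher and 3 lower at 35 min (8 and 5) and 12 higher and 1 lower at 55 min (20 and 2). With the same limit the comparison with scc2-D730V at 0 min had 16 higher and 1 lower (25 and 2). In eco1-W216G 4 fell over 15 min (7), 5 over 35 min (10), and 6 rose and 2 fell over 55 min (11 and 6). In scc2-D730V 16 rose over 35 min (25) and 7 fell over 55 min (11), and in WT 14 rose over 35 min (23) and 13 over 55 min (21). With array weights, whose estimate did not fully converge, 4, 5 and 8 were lower at 0, 15 and 35 min (2, 3 and 5), 22 and 31 higher at 35 and 55 min (8 and 20) and 5 lower than in scc2-D730V at 0 min (2). With weights, in eco1-W216G 13 fell over 15 min (7), 14 rose and 19 fell over 35 min (6 and 10) and 13 fell over 55 min (6), in scc2-D730V 19 fell over 15 min (12), and the change in eco1-W216G was below that in WT for 16 over 15 min (9) and 17 over 55 min (10). With each culture as a random block 11 rose in eco1-W216G over 35 min (6), and the change was above that in WT for 7 over 15 min (4) and 9 over 55 min (5). With the compared groups fitted alone 4 were lower at 0 min (2) and 1 at 55 min (2), and against scc2-D730V at 0 min 14 were higher and 0 lower (25 and 2). Arrays centred on their medians gave 1 lower at 55 min (2), quantile normalization applied again gave 13 higher at 35 min (8), and adjustment over all contrasts gave 1 higher in scc2-D730V than in WT at 15 min (0). Leaving out a culture removed the arrays of 1 number in a strain at all times, which assumes that the number marks 1 culture followed over time; the labels do not say so, and arrays of the same number deviated together (correlation over 0.1) in 12 of 18 pairs of times in eco1-W216G, 14 of 18 in scc2-D730V and 14 of 18 in WT. It gave ranges, over eco1-W216G against WT, of 14 to 27 higher and 1 to 4 lower at 0 min, 18 to 21 and 1 to 5 at 15 min, 6 to 11 and 1 to 6 at 35 min, and 11 to 22 and 0 to 3 at 55 min. Against scc2-D730V at 0 min they were 16 to 25 higher and 0 to 3 lower. Changes in eco1-W216G ranged over 3 to 10 higher and 3 to 8 lower at 15 min, 4 to 8 and 3 to 11 at 35 min, and 5 to 12 and 1 to 7 at 55 min, and the change over 55 min was below that in WT for 6 to 11. Same-numbered mutant and WT cultures deviated together with a correlation over 0.1 in 21 of 24 pairs (-0.14 to 0.84), and 20 of the 24 correlated best with their own number, a hint from the data and not from the design. Since 3 pairs fell short and the labels name no shared batch, no block was used in the main fit. A fit with the replicate number as a block called 28, 21, 12 and 22 members higher in eco1-W216G at 0, 15, 35 and 55 min (25, 20, 8 and 20) and moved no count by over 1.5 times. With the block RHO1, RLM1, BCK1 and EXG2 were also called at 0 min, RHO1 and RLM1 at adjusted p = 0.0337 and 0.00922 in limma (0.0508 and 0.0697 without it). So were TOS1 and PKC1 at 15 min, GAS5, EXG1, BCK1, MKK1 and RLM1 at 35 min and CHS3 and RLM1 at 55 min, and none of the calls against WT was lost. Of 1386 recomputed ratios of named members, 1296 kept their direction and side of the threshold, 71 fell short of it, 17 newly passed it and 2 turned. Those were RHO1 at 15 min, -0.04 in eco1-W216G against WT, which was 0.02 with arrays centred on their medians and which leaving out cultures moved between -0.09 (without WT replicate 3) and 0.01 (without WT replicate 1). Each member has 1 probe set, so averaging several was not run. Depth does not apply to arrays; signal near the top of the scale limits the 22 bright members.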

Other observations

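Wall genes outside the 51 members also differed between eco1-W216G and WT, in both directions. Of 30 other genes of wall proteins and remodelling enzymes, 12 were higher in the mutant at 0 min (40%) and 7 lower (23.3%), with a median log2 ratio of 0.26, while over all probe sets 13.7% were higher and 11.9% lower. The lower ones included DSE2, DSE4, EGT2 and SCW11, which daughter cells use to part from their mothers, with log2 ratios of -0.45, -1.06, -0.53 and -0.72 (adjusted p = 0.0445, 0.0011, 0.0338 and 0.0131 in limma). Of the 8 genes that peak between mitosis and G1, 6 were lower. These 6 include DSE2, EGT2 and SCW11 from the same probe sets, so the lists overlap and are not separate evidence. The part of the cell cycle was not tested. The higher ones included PUN1, a plasma membrane protein, at 1.33 (adjusted p = 5.03e-07), and YPS6, a further yapsin, at 2.32 (adjusted p = 2.43e-08).

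Of the same 30 genes, those called higher in eco1-W216G at all 4 times were CDA1, CDA2, GAS2, SPS22, NCA3, PUN1 and YPS7. Calls at all 4 times were not counted over all probe sets. Whether their number exceeds the background was therefore not tested. NCA3 had ratios of 2.50, 2.93, 2.43 and 2.54 at 0, 15, 35 and 55 min, with a standard error of 0.87 at each time, so that its size is poorly known. CDA1, a chitin deacetylase of the spore wall, was higher by 2.35, 2.09, 1.83 and 2.00 at 0, 15, 35 and 55 min, and CDA2, its relative, by 0.60, 0.62, 0.63 and 0.87. GAS2, a spore wall relative of GAS1, was higher by 0.97, 2.11, 1.67 and 1.76, and SPS22 by 1.37, 0.73, 0.91 and 1.19. Other genes of the list known from sporulation did not share this course. SPS2 had ratios of 0.53, 0.31, 0.24 and 0.63 and GAS4 of 0.53, -0.04, -0.36 and -0.16, and neither was called at any time. SPR1 had ratios of -0.13, -0.17, -0.23 and -0.35 and was called lower at 55 min. Of 3 markers of mating type alpha in these haploid strains, STE3 was higher in eco1-W216G at 0 min, by 1.50, and MF(ALPHA)1 by 0.90 with overlapping arrays. MF(ALPHA)2 was at -0.02 and was not called. At 15 and 55 min MF(ALPHA)1 was again called higher, by 0.79 and 0.73, with no overlap, and at 35 min it was not called (0.52). STE3 was not called at 15, 35 or 55 min (0.47, 0.32 and 0.62). In WT its mean went from 6.53 at 0 min to 7.75 at 15 min. Of the markers of mating type a, ASG7 was called lower at 0, 35 and 55 min (-0.56, -0.96 and -0.79), at 0 min with overlapping arrays. MFA1, MFA2, STE2 and STE6 were called at no time.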
